A study of Mus musculus with 8 samples.

Results

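Fibronectin, versican and nephronectin are proteins of the extracellular matrix, and integrins are the surface receptors by which cells hold such proteins. The 9 genes described are Fn1, Vcan and Npnt, which encode the 3 matrix proteins, the alpha integrin subunits Itga3, Itga5, Itga6 and Itgav, and the beta integrin subunits Itgb1 and Itgb5. They were picked by symbol out of a table of 23818 genes and were chosen on measured values of these same libraries, in which several of them stood higher in the knockout. Their levels and differences are therefore given as a description, with no p-value.

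An integrin is a dimer of an alpha and a beta subunit, and a subunit that finds no partner is not carried to the cell surface. Itga5 with Itgb1 forms the classical fibronectin receptor, Itgav with Itgb1 or Itgb5 binds fibronectin and vitronectin through their RGD motif, and Itga3 and Itga6 with Itgb1 bind laminins. Mouse embryonic stem cells attach through such receptors, and the matrix they sit on is known to bear on the balance of self-renewal and differentiation.

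The cells were J1 mouse embryonic stem cells in 2i medium with LIF, either wild type (WT) or lacking METTL6, a methyltransferase that makes the m3C mark of tRNAs. The knockout (KO) is 1 clone, called G6, so the loss of the gene and the history of the clone cannot be told apart. Every culture, of either genotype, received cycloheximide, an inhibitor of elongation, for 10 min before lysis, and each genotype gave total RNA libraries and ribosome profiling libraries of the 26 to 32 nt fragments left by RNases A and T1 on 80S ribosomes. Each of the 4 groups held 2 libraries labelled as biological replicates, and a suffix ("new") stands in the WT total RNA titles and not in the KO ones.

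Values are CPM, the reads of each gene relative to the total of its library. Total RNA libraries held 1301531 to 2031518 reads and footprint libraries 1835677 to 2960255 reads, as estimated from what 1 read is worth in CPM. Rn45s, the ribosomal RNA precursor, held 2.49% to 6.46% of total RNA reads and 38.3% to 46.3% of footprint reads. Mettl6 total RNA was 25.6 and 27.1 CPM in WT, 2.30 CPM in the first KO library and listed at 0 in the second. Its footprints did not separate the genotypes (3.38 and 6.59 CPM in WT, 5.33 and 4.36 CPM in KO). All 10 markers of embryonic stem cells were present, with sums of 5536 to 5853 CPM in WT, against 4641 to 5201 CPM in KO total RNA. Of these, Nanog (chromosome 6) and Zfp42 (chromosome 8) were called lower in KO in both kinds of library, and Fgf4 was called higher in footprints.

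A gene was called where limma-trend on log2(CPM + 1) gave a Benjamini-Hochberg adjusted p below 0.05 over all genes averaging 1 CPM or more, and all 9 genes passed that filter in both kinds of library. In total RNA 6 of the 9 (Fn1, Vcan, Npnt, Itga6, Itgav and Itgb5) were called higher in KO, where 6.57% of 13222 genes were, and 0 were called lower, where 7.03% were. In footprints 7 of the 9 (the same genes and Itga5) were called higher, where 10.7% of 11624 genes were, and 0 lower, where 8.28% were. Nothing is read from these counts, since the genes were chosen from the same contrasts. The median log2 difference (KO minus WT) of the 9 genes was 1.0 in total RNA, against −0.04 over all genes tested, and 1.28 in footprints, against −0.05. In a bulk sample a larger share of cells that express a gene and more RNA per cell cannot be told apart.

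**Figure D1:**
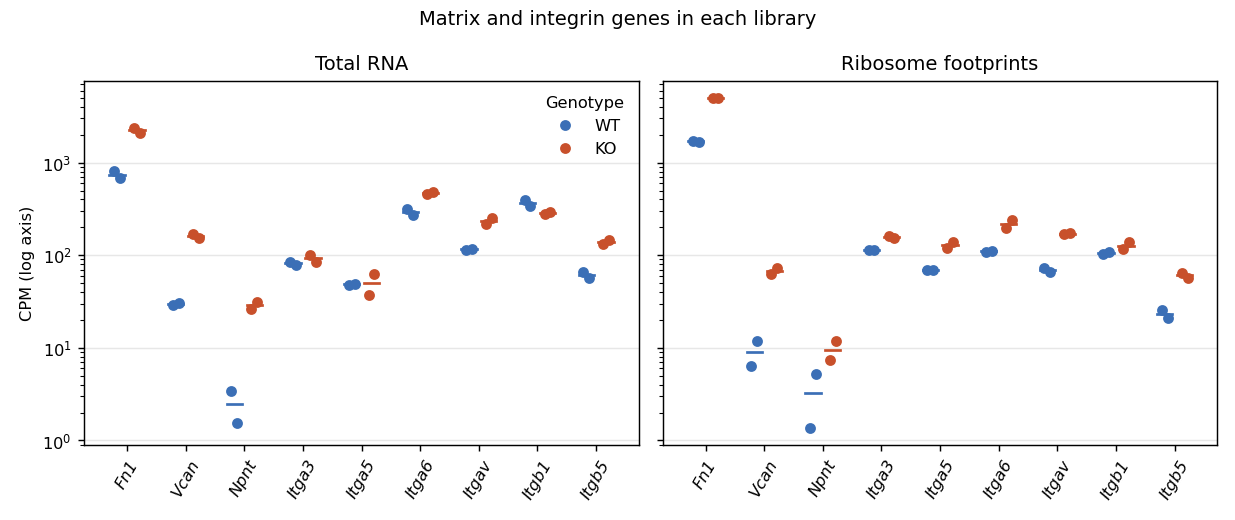
CPM on a log axis of each gene in each library, total RNA on the left and ribosome footprints on the right, with 1 point per library and a bar at the group mean. Fn1 stood at 2108 and 2371 CPM in KO against 680.4 and 808 CPM in WT total RNA, while the KO points of Itga5 in total RNA lay on either side of the WT points and those of Itgb1 lay below them.

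Fn1, the gene of fibronectin (chromosome 1, 71585520 to 71653200, minus strand, GRCm38), had the highest level per kb of the 3 matrix genes. Its total RNA was 808 and 680.4 CPM in the WT libraries and 2371 and 2108 CPM in the KO libraries. Both KO libraries lay far above both WT ones, a 3.01-fold ratio of means with a log2 difference of 1.59 (SE 0.114). Fn1 footprints were 1712 and 1673 CPM in WT, against 5039 and 4969 CPM in KO, again with a wide gap between the genotypes and little spread within them. The ratio there was 2.96-fold (log2 difference 1.56, SE 0.188), close to that of total RNA. Of the 11685 exonic bases of Fn1 in GENCODE, 292 are also exonic in Apol7d on the opposite strand. Whether reads were counted by strand is not given in the sources used here.

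Vcan encodes versican, a large proteoglycan that carries chondroitin sulfate and binds hyaluronan (chromosome 13, 89655312 to 89742509, minus strand). Total RNA stood at 29.0 and 30.6 CPM in WT, against 169.8 and 154 CPM in KO, a 5.42-fold ratio (log2 difference 2.40, SE 0.191). Vcan footprints were 6.42 and 11.8 CPM in WT, against 62.3 and 73.5 CPM in KO, a 7.47-fold ratio (log2 difference 2.82, SE 0.25). In both kinds of library the genotypes were widely apart, and the 2 WT footprint libraries differed more from each other, relative to their level, than the KO ones did. The WT footprint values rest on an estimated 19 and 25 reads. The footprint difference was 2.43 without WT replicate 1 and 3.21 without WT replicate 2, and Vcan was called in either case.

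Npnt encodes nephronectin, an RGD protein of basement membranes whose receptor in the developing mouse kidney is Itga8 with Itgb1 (chromosome 3, 132881745 to 132950291, minus strand). It had the lowest total RNA level per kb of the 9 genes in both genotypes. In total RNA it was at 3.45 and 1.53 CPM in WT (7 and 3 reads), against 26.1 and 31.5 CPM in KO (34 and 48 reads). The genotypes did not overlap, and the ratio of means, 11.6-fold (log2 difference 3.15, SE 0.473), rests on few WT reads. Npnt footprints were 1.35 and 5.18 CPM in WT, against 7.38 and 11.8 CPM in KO, a 2.93-fold ratio (log2 difference 1.44, SE 0.41). The KO footprint libraries again lay above the WT ones, but the gap was narrow. The footprint difference was 0.74 without WT replicate 1 and 2.14 without WT replicate 2. In fits of the 3 libraries left, Npnt footprints were no longer called without WT replicate 1 or without KO replicate 2.

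The 250 bases ahead of the annotated start were read for the 3 genes whose total RNA stood furthest apart between the genotypes among those with a RefSeq window, Npnt, Vcan and Itgb5. RefSeq windows (GRCm38.p6) were found for 7 of the 9 genes. Fn1 and Itga6 had none. Motifs were sought on both strands as GGAATG (bound by TEAD factors), TGACGTCA (the cyclic AMP response element), TGANTCA (AP-1), GGGCGG (the GC box) and CCAAT, and none of these motifs contains another. Over all 32851 windows of that length, 12.6%, 1.55%, 6.75%, 32.7% and 33.8% held them. Capitals mark the matches, and each window is written 5′ to 3′ on the strand of its gene.
Npnt, chr3:132950292-132950541, minus strand: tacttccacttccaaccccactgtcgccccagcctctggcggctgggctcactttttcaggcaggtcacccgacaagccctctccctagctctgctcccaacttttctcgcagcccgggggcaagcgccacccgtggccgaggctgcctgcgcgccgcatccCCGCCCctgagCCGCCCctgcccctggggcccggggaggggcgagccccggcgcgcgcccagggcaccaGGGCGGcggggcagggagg
Vcan, chr13:89742513-89742762, minus strand: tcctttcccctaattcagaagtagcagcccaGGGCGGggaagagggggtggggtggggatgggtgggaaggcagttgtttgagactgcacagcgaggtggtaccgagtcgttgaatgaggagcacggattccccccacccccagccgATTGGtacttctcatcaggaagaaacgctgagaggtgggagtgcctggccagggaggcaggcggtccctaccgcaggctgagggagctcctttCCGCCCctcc

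The Npnt window held 3 GC boxes, and the Vcan window held 2 GC boxes and 1 CCAAT box. GC content was 74% for Npnt and 62.4% for Vcan, against a median of 52.4% over all windows. A second RefSeq start of Npnt lies inside the gene, and its window (chr3:132949815-132950064, 69.6% GC) held none of the motifs. The printed windows held no GGAATG, TGACGTCA or TGANTCA, which says only that those letters are not in these bases. The matches describe the sequence, and no binding was measured.

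Itga5, the alpha subunit of the classical fibronectin receptor (chromosome 15, 103344286 to 103366763, minus strand), was called in footprints only, and the difference between the kinds was not called. Its total RNA was 47.7 and 49.0 CPM in WT, against 36.9 and 63.0 CPM in KO. The KO libraries lay on either side of the WT ones, with a log2 difference of 0.00 (SE 0.254) that was 0.37 without KO replicate 1 and −0.38 without KO replicate 2. Itga5 footprints were 69.3 and 68.6 CPM in WT, against 119.8 and 137 CPM in KO. These groups were well apart, with a 1.86-fold ratio (log2 difference 0.89, SE 0.178).

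Itgav, the alpha subunit of RGD receptors for fibronectin and vitronectin (chromosome 2, 83724397 to 83806916, plus strand), was higher in KO in both kinds of library. In total RNA Itgav was at 115 and 116 CPM in WT, against 216 and 251 CPM in KO, a 2.01-fold ratio (log2 difference 1.0, SE 0.15). Itgav footprints were 72.8 and 66.4 CPM in WT, against 169 and 173 CPM in KO, a 2.45-fold ratio (log2 difference 1.28, SE 0.174). Neither kind of library showed an overlap of the genotypes. Of the 10744 exonic bases of Itgav, 634 are also exonic in the transcript Gm13684 of the opposite strand.

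Itga6, a laminin receptor subunit (chromosome 2, 71745616 to 71858416, plus strand), had the highest total RNA level per kb of the 4 alpha subunits. It stood at 318 and 269 CPM in WT, against 457 and 476 CPM in KO total RNA, a 1.59-fold ratio (log2 difference 0.67, SE 0.128). Its footprints were 109.7 and 112 CPM in WT, against 195 and 239 CPM in KO, a 1.96-fold ratio (log2 difference 0.96, SE 0.17). The genotypes did not overlap in either kind.

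Itga3, the other laminin receptor subunit (chromosome 11, 95044474 to 95076801, minus strand), was not called in either kind of library. In total RNA Itga3 was at 84.7 and 78.7 CPM in WT, against 99.9 and 84.6 CPM in KO, and the lower KO library fell within the WT range (log2 difference 0.17, SE 0.181). Its footprints were 115 and 114 CPM in WT, against 159.6 and 152 CPM in KO. There the genotypes did not overlap, with a 1.36-fold ratio (log2 difference 0.44, SE 0.169).

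Itgb1, the beta subunit shared by most receptors named above (chromosome 8, 128685654 to 128733200, plus strand), lay on opposite sides in the 2 kinds of library. Its total RNA was 391 and 342 CPM in WT, against 278 and 296 CPM in KO. Both KO libraries were below both WT ones, and the log2 difference was −0.35 (SE 0.129, not called). Its footprints were 102 and 109 CPM in WT, against 116 and 139 CPM in KO. Here both KO libraries were above both WT ones, by 1.21-fold (log2 difference 0.27, SE 0.175, not called).

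Itgb5, which pairs with Itgav in a vitronectin receptor (chromosome 16, 33829665 to 33949338, plus strand), was higher in KO throughout. Its total RNA was 65.5 and 56.7 CPM in WT, against 131 and 145 CPM in KO, a 2.26-fold ratio (log2 difference 1.17, SE 0.177). Its footprints were 25.7 and 21.2 CPM in WT, against 64.8 and 56.7 CPM in KO, a 2.59-fold ratio (log2 difference 1.34, SE 0.212). No WT library reached a KO library in either kind. Its upstream window, of 65.2% GC, held 3 GC boxes and none of the other motifs.
Itgb5, chr16:33829415-33829664, plus strand: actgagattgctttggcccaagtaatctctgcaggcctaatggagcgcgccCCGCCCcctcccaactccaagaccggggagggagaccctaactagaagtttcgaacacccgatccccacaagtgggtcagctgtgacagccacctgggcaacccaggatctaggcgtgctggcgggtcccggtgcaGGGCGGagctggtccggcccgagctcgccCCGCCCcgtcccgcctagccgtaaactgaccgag

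Itgb1 lies on chromosome 8 and Itga3 on chromosome 11, and genes of these chromosomes and of chromosome 6 were lower in KO as a body. The median log2 difference was −0.39 on chromosome 8 in both kinds of library, and on chromosome 11 it was −0.44 in total RNA and −0.45 in footprints. On the 17 chromosomes other than 6, 8 and 11 the total RNA medians lay between −0.03 and 0.08 and the footprint medians between −0.02 and 0.07. Less the median of its chromosome, Itgb1 stood at 0.04 in total RNA and 0.66 in footprints, and Itga3 at 0.61 and 0.89. With chromosome medians removed limma-trend called Itga3 in both kinds of library and Itgb1 in footprints. Of the 8 other settings that kept all libraries, this was the only 1 to call them. Then 7 of the 9 genes were called in total RNA, where 1478 of 13222 genes were called in either direction. In footprints 9 of 9 were, where 1737 of 11624 were. The genes were chosen from the same contrasts, so nothing is read from these counts. The other 7 genes lie on chromosomes 1, 2, 3, 13, 15 and 16.

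Calls in total RNA depended on single libraries, over all genes as well as for these 9. In a fit of the 3 libraries left, limma-trend called 0 of the 9 genes without KO replicate 1 or without KO replicate 2, and over all genes it called 1 and 0. In a fit of the libraries of both kinds, 5 of the 9 were called without KO replicate 1 (1044 of 13162 genes over all) and 5 without KO replicate 2 (1414 of 13181), and Itga6 was lost in both. Without WT replicate 1 the same 6 genes were called in either fit. Without WT replicate 2 the smaller fit lost Itga6 (447 of 13256 genes called over all), and the fit of both kinds lost Itga6 and Npnt (307 of 13256). In footprints that larger fit lost Npnt without WT replicate 1 or either KO replicate, and Itga5 without WT replicate 2 or KO replicate 2.

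**Figure D2:**
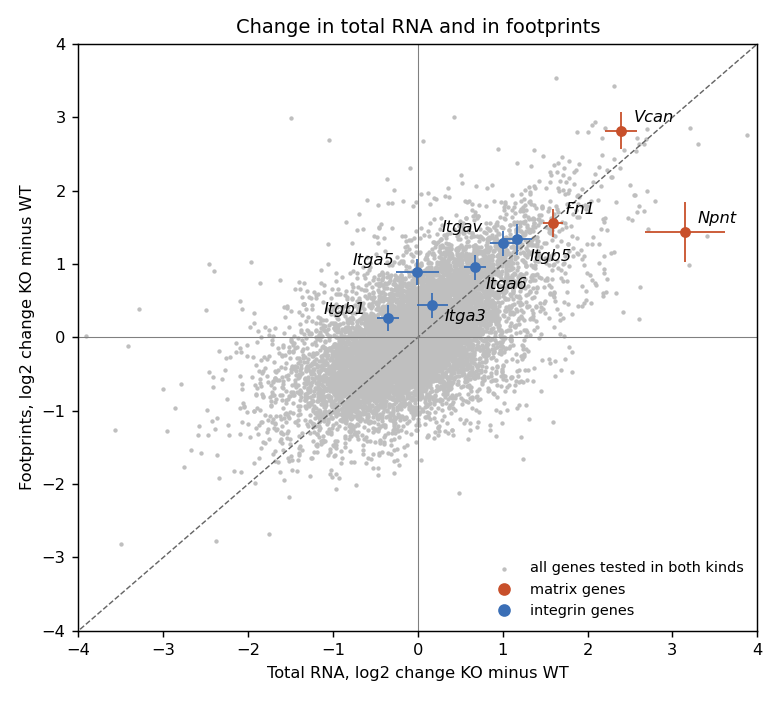
Log2 difference (KO minus WT) in total RNA on the x axis and in footprints on the y axis for the 9 genes, with standard errors, over all genes tested in both kinds (gray); the dashed line marks equal differences, and genes beyond 4 on either axis are not drawn. Fn1 lies on the line (1.59 and 1.56), Npnt below it (3.15 and 1.44), and Itga5 and Itgb1 above it.

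Translational efficiency was compared as the difference of the footprint and total RNA differences, in 1 limma-trend fit of all 8 libraries. Of the 9 genes 0 were called, where 0.044% of 11364 genes were called higher and 0.0176% lower, and 3 of the 9 had an unadjusted p below 0.05. The fit called 7 genes in all, and 1013 had an unadjusted p below 0.05. Mettl6, the gene knocked out, was 1 of the 7, called higher (3.93, limma-trend adjusted p = 0.0225). Its total RNA was lower in KO, and its footprints did not separate the genotypes. The log2 difference was −0.03 for Fn1 (SE 0.224), 0.42 for Vcan (SE 0.339) and −1.71 for Npnt (SE 0.662). Among integrins it was 0.89 for Itga5 (SE 0.302), 0.61 for Itgb1 (SE 0.225), 0.29 for Itga6 (SE 0.223), 0.28 for Itgav (SE 0.231), 0.27 for Itga3 (SE 0.24) and 0.17 for Itgb5 (SE 0.281). All 6 integrin values were above 0, as were those of 6293 of the 11364 genes tested, whose median was 0.07. Nothing is read from their sign. Itga5 was called in 1 of the 8 fits that left out a library, the fit without KO total RNA replicate 2, where its value was 1.27.

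Within a genotype, the footprint to total RNA ratio (log2 of mean footprint CPM + 1 over mean total RNA CPM + 1) set the genes far apart. In WT it was highest for Fn1, at 1.18, above 96.9% of the 8437 genes averaging 5 CPM or more in each kind. Itga5 followed at 0.50, Itga3 at 0.48 and Npnt at 0.29. The Npnt value rests on 4 and 11 footprint reads. Itgav was at −0.73, Itgb5 at −1.35, Itga6 at −1.40, Vcan at −1.61 and Itgb1 at −1.79, where the median of the 8437 genes was −0.83. Itgb1 thus stood above only 19.5% of them. In KO the ratio of Fn1 was 1.16, of Itga5 1.35 and of Itgb1 −1.17, against a median of −0.77. The ratio takes no account of the untranslated part of a transcript, which footprints do not cover. A change in the share of Rn45s moves all genes of a library by the same factor and leaves their order as it is.

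**Figure D3:**
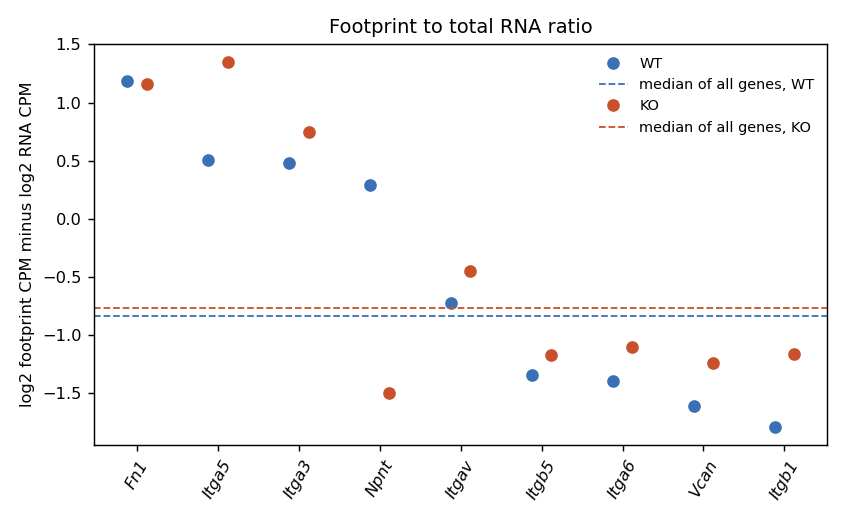
Log2 footprint to total RNA ratio of each gene in WT (blue) and KO (orange), ordered by the WT value, with dashed lines at the median of genes averaging 5 CPM or more in each kind (−0.83 in WT and −0.77 in KO). Fn1, Itga5 and Itga3 lie above both lines in both genotypes, and Npnt lies at 0.29 in WT and −1.50 in KO.

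Levels of different genes were set side by side as CPM per kb, of the longest coding transcript for total RNA and of its coding sequence for footprints. In WT total RNA the highest levels were those of Itgb1 (96.0 ± 9.10 CPM per kb, SD, n = 2) and Fn1 (89.5 ± 10.8), whose ranges overlapped, followed by Itga6 (68.1 ± 8.09). Itgb5 (18.6 ± 1.89), Itga3 (16.8 ± 0.873) and Itgav (16.4 ± 0.128) came next, each overlapping its neighbor. Itga5 (11.04 ± 0.208), Vcan (2.40 ± 0.0914) and Npnt (0.539 ± 0.293) closed the order. In KO total RNA Fn1 came first, at 269 ± 22.4 CPM per kb, and Itgb1 came after Itga6 (75.2 ± 3.30 against 108 ± 3.15). In footprints Fn1 led by far in both genotypes, at 228 ± 3.66 CPM per kb in WT and 673 ± 6.71 CPM per kb in KO. The second level was Itgb1 in WT (44.0 ± 1.98) and Itga6 in KO (67.4 ± 9.78). Parts of this order depended on the transcript length used. With the mean length of the coding transcripts, Itgav stood at 37.5 CPM per kb in WT total RNA, above Itga3 (22.2) and Itgb5 (21.6), and Vcan at 7.27. Itgb1 then lay above Itga6 in KO total RNA (127 against 119), and Itgav was second to Fn1 in KO footprints (120.3). Fn1 stayed first in KO total RNA and in the footprints of both genotypes.

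All 4 alpha subunits can pair with Itgb1, so their summed level was set against it in each library. In total RNA the 4 alpha subunits summed to 1.16 and 1.19 times the Itgb1 level per kb in WT and to 2.27 and 2.29 times in KO. In footprints the sum was 2.72 and 2.50 times the Itgb1 level in WT and 4.20 and 3.80 times in KO. The KO libraries thus lay above the WT ones in both kinds, with no overlap. The Itgb1 level per kb was 5.14 and 5.18 times that of Itgb5 in WT total RNA and 1.82 and 1.76 times in KO. In footprints it was 3.98 and 5.14 times the Itgb5 level in WT and 1.79 and 2.46 times in KO. Both ratios hold Itgb1, which lies on chromosome 8, where the median log2 difference was −0.39 in both kinds of library. The part of that shift in the ratios was not tested. The genes were also chosen on their values in these libraries, so nothing is read from the gaps between the genotypes. RNA and footprint levels do not measure the dimers at the cell surface.

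Other adhesion genes were read from 5 lists holding 120 genes, 119 of them in the table, that were drawn up with earlier results of these data known. Of the 89 tested in total RNA, 17 were called higher and 2 lower in KO, where 6.57% and 7.03% of 13222 genes were. Of the 84 tested in footprints, 23 were called higher and 1 lower, where 10.7% and 8.28% of 11624 genes were. The same shares stand against the counts of each list below, and nothing is read from those counts. The total RNA count of 19 was 12 with no filter on low values. In fits of 3 libraries it was 11 without WT replicate 1, 4 without WT replicate 2 and 0 without either KO replicate, whereas in footprints the count of 24 was 18 with any 1 library left out. Without either KO replicate the total RNA fits of 3 libraries called almost no gene of the whole table, so their list count is no trait of the lists. For translational efficiency 0 of 82 were called by limma-trend, and 11 had an unadjusted p below 0.05, where 1013 of 11364 genes did.

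Among 20 other integrin subunits, 0 of the 11 tested in total RNA were called. There 1 had an unadjusted p below 0.05 in limma-trend, where 3689 of 13222 genes did. The median log2 difference was −0.41 in total RNA (median SE 0.67). In footprints 2 of 7 were called higher and 0 lower, with a median of 0.54 (median SE 0.41). Itgb3, a partner of Itgav, was at 16.9 and 14.6 CPM in WT, against 34.5 and 29.4 CPM in KO footprints (log2 difference 0.98, limma-trend with Benjamini-Hochberg adjusted p = 0.00324). Its total RNA did not separate the genotypes, at 43.3 and 43.9 CPM in WT, against 33.0 and 47.2 CPM in KO (log2 difference −0.14, limma-trend adjusted p = 0.768). The difference between the kinds was not called (1.115, SE 0.349). Itgb4, which pairs with Itga6, was at 12.8 and 9.41 CPM in WT, against 26.3 and 27.2 CPM in KO footprints (1.21, limma-trend adjusted p = 0.00088). Both genes lie on chromosome 11, and in fits of 3 libraries Itgb3 was not called without WT replicate 2 or without KO replicate 1 (limma-trend adjusted p = 0.0575 and 0.0664). In the fit of both kinds Itgb4 lost its call whichever library was left out (limma-trend adjusted p from 0.063 to 0.194). Itga8, the nephronectin receptor subunit, named after its values were seen, was at 0.492 and 0 CPM in WT, against 4.61 and 5.25 CPM in KO total RNA and was not called (limma-trend adjusted p = 0.0542).

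Of 18 other matrix ligands of integrins, 5 of the 12 tested in total RNA were called higher and 0 lower, with a median log2 difference of 0.96, and in footprints 6 of 13 were higher and 0 lower, with a median of 1.13. Fbln5, an RGD protein of elastic fibers, was at 14.3 and 7.66 CPM in WT, against 40.7 and 36.1 CPM in KO total RNA (1.77, limma-trend adjusted p = 0.00246), and its footprints rose with a log2 difference of 1.97 (limma-trend adjusted p = 2.23e-08). Fbln1, a fibulin that binds fibronectin, was at 67.3 and 63.5 CPM in WT, against 172 and 165 CPM in KO footprints (1.35, limma-trend adjusted p = 2.74e-07). Its call in total RNA ended with no filter on low values, a pseudocount of 0.1 or chromosome medians removed (limma-trend adjusted p from 0.0513 to 0.127). Mfge8, an RGD protein bound by Itgav receptors, was at 158 and 124 CPM in WT, against 244 and 283 CPM in KO total RNA (0.90, limma-trend adjusted p = 0.00091). Fbln2 was called in footprints (1.56, limma-trend adjusted p = 0.000301) and not in total RNA (0.15, limma-trend adjusted p = 0.904), and the difference between the kinds was not called. In the fit of both kinds Fbln2 lost its footprint call whichever footprint library was left out. The others called in both kinds were Spp1, the gene of osteopontin, and Thbs1, the gene of thrombospondin. Vtn, the gene of vitronectin, was listed at 0 in all 4 total RNA libraries.

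Of 24 relatives of versican and genes of hyaluronan and chondroitin sulfate, 3 of 16 were called higher in total RNA and 3 of 14 in footprints, and 0 were lower. The medians of the log2 difference were 0.04 and 0.60. Adamts9, a protease that cleaves versican, was at 37.9 and 32.7 CPM in WT, against 70.7 and 86.0 CPM in KO total RNA (1.12, limma-trend adjusted p = 0.00227), and it was called in footprints too (1.23, limma-trend adjusted p = 0.00217). Chpf, a factor of chondroitin chain elongation, was called in total RNA (1.20, limma-trend adjusted p = 0.00791) and footprints (0.81, limma-trend adjusted p = 0.00422). Xylt1, which starts such chains, was called in total RNA (2.05, limma-trend adjusted p = 0.0453), and Hapln3, a link protein of hyaluronan, in footprints (1.42, limma-trend adjusted p = 0.00767). Xylt1 was no longer called with no filter on low values, a filter at 5 CPM, a pseudocount of 0.1 or chromosome medians removed (limma-trend adjusted p from 0.0545 to 0.144). Footprints of Hapln3 were called only without KO replicate 2 among the fits of 3 libraries, and those of Chpf were not called there without KO replicate 1. In the fit of both kinds neither was called in footprints with any 1 footprint library left out. The hyaluronan receptor Cd44 was at or below 1.23 CPM in every library.

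Of 37 focal adhesion adaptors and kinases, which couple integrins to actin and to signaling, 4 of 29 were called higher and 1 lower in total RNA. In footprints 3 of 30 were called higher and 1 lower, where 10.7% and 8.28% of all genes were. The medians of the log2 difference were 0.18 and −0.02. Flna, the actin crosslinker filamin A, was at 530.1 and 496 CPM in WT, against 1206 and 1560.3 CPM in KO total RNA (1.42, limma-trend adjusted p = 1.58e-06), with a like difference in footprints (1.61, limma-trend adjusted p = 2.87e-09). Tln1, talin, which binds integrin beta tails, was called in total RNA (0.75, limma-trend adjusted p = 0.00222) and footprints (0.50, limma-trend adjusted p = 0.0276). Actn1, an alpha-actinin, was called in total RNA (0.77, limma-trend adjusted p = 0.00489), as was Actn4, and neither was called in footprints. Actn1 footprints were 127 and 122 CPM in WT, against 152 and 114 CPM in KO (0.08, limma-trend adjusted p = 0.811). Its total RNA was not called with any 1 library left out, in the fit of 3 libraries or of both kinds. Vcl, vinculin, was called in footprints (0.68, limma-trend adjusted p = 0.00361). The lower calls were the adaptor Crk on chromosome 11 in total RNA (−0.79, limma-trend adjusted p = 0.00325) and the small GTPase Rap1a in footprints (−0.92, limma-trend adjusted p = 0.0455). With chromosome medians removed Crk was not called (−0.35, limma-trend adjusted p = 0.164). In footprint fits of 3 libraries Tln1 was not called with any 1 library left out, Vcl not without WT replicate 1 or KO replicate 1, and Rap1a not without WT replicate 1, WT replicate 2 or KO replicate 2. The Rap1a call also ended with no filter, a pseudocount of 0.1, quantile normalization or 1 fit of all 8 libraries (limma-trend adjusted p from 0.0529 to 0.069).

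Of 21 integrin partners and processing enzymes, 5 were called higher and 1 lower in total RNA, and 9 of 20 higher and 0 lower in footprints, with medians of 0.40 and 0.44. They included the tetraspanins Cd81 and Cd63, which form membrane complexes with integrins. Cd81 was at 184 and 140.0 CPM in WT, against 386 and 442 CPM in KO total RNA (1.36, limma-trend adjusted p = 1.74e-05), and Cd63 was called in footprints at 1.37 (limma-trend adjusted p = 1.47e-07). The syndecan Sdc4, a coreceptor for fibronectin, was at 85.7 and 67.4 CPM in WT, against 125 and 171 CPM in KO total RNA (0.94, limma-trend adjusted p = 0.00333), and Sdc2 was called in footprints (1.37, limma-trend adjusted p = 0.00255). Pcsk6, a proprotein convertase, was called in total RNA (1.16, limma-trend adjusted p = 0.000508). Of these genes Cd81, Cd63, Sdc4 and Pcsk6 were called higher in both kinds of library, and Sdc2 in footprints only. Tgm2, a transglutaminase that binds fibronectin, was lower, at 13.3 and 11.2 CPM in WT, against 1.54 and 4.59 CPM in KO total RNA (−1.81, limma-trend adjusted p = 0.0385). Tgm2 was not called with no filter on low values or with a pseudocount of 0.1 (limma-trend adjusted p = 0.122 and 0.0657). In fits of 3 libraries footprints of Sdc2 were not called without WT replicate 1 or without KO replicate 2. In the fit of both kinds they were not called with any 1 footprint library left out.

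**Figure D4:**
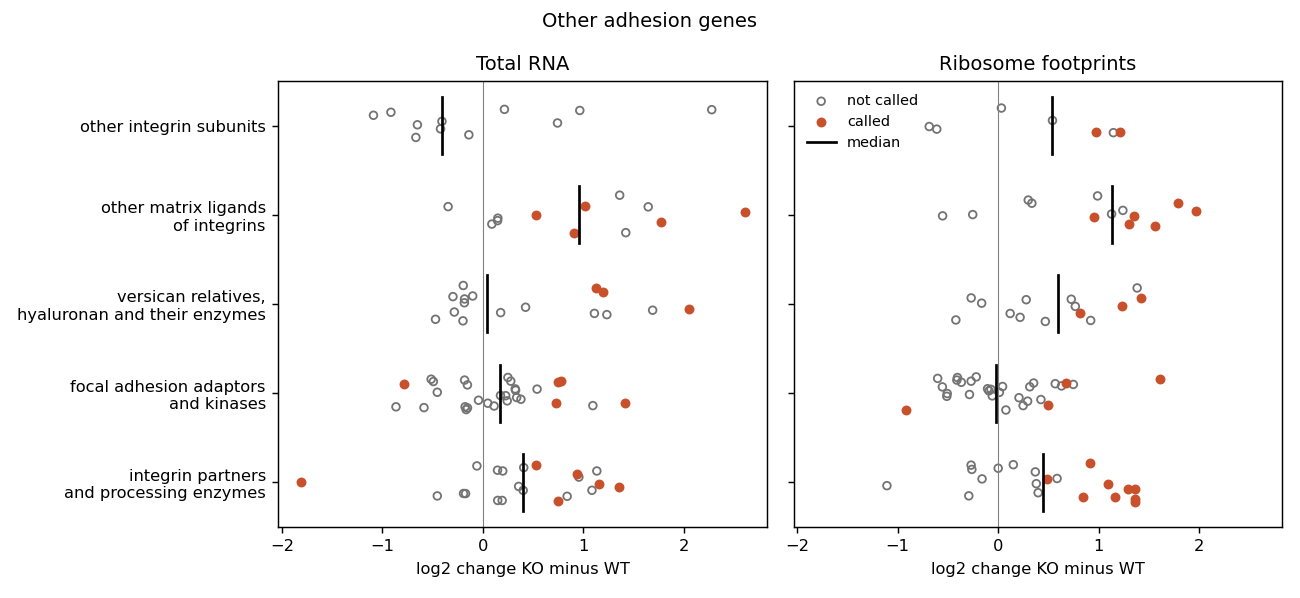
Log2 difference (KO minus WT) of each tested gene of the 5 lists, total RNA on the left and footprints on the right, with 1 point per gene (filled where called, spread vertically for legibility) and a black line at the median of the list. The medians of the matrix ligands lie at 0.96 and 1.13, and those of the focal adhesion genes at 0.18 and −0.02.

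Fn1 is also abundant in fibroblasts and in primitive endoderm, so markers of these cells were read in the same libraries. Of 10 fibroblast or feeder markers, 4 (Col3a1, Dcn, Lum and Postn) were at 0 in every library, and none of the 10 exceeded 9.22 CPM. Their sum in total RNA was 3.45 and 4.09 CPM in WT, against 10.8 and 2.62 CPM in KO. In footprints it was lower in KO, at 7.10 and 8.03 CPM in WT, against 4.74 and 4.39 CPM in KO. Of 10 primitive or parietal endoderm markers Ttr was at 0 throughout, and the sum in total RNA was 12.3 and 5.62 CPM in WT, against 23.0 and 20.3 CPM in KO. In footprints that sum was 13.8 and 13.0 CPM in WT, against 15.2 and 15.4 CPM in KO. The endoderm sums were higher in KO as Fn1 was, and their part in the difference of Fn1 was not tested. Of the 4 endoderm markers tested, 0 were called in total RNA, and in footprints Dab2 was higher and Gata4 lower. Trophoblast markers summed to 41.8 and 40.4 CPM in WT, against 38.5 and 42.7 CPM in KO total RNA, and to 54.7 and 51.8 CPM in WT, against 62.8 and 65.9 CPM in KO footprints, where Gata3 alone was called higher. Neural markers summed to 168 and 153 CPM in WT, against 91.4 and 87.9 CPM in KO total RNA, and Nes was called lower in both kinds. The 8 mesoderm markers summed to at most 12.3 CPM in any library, and none was called.

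The genes whose profiles over the 8 libraries lay nearest to those of the 3 matrix genes were found among 8182 candidates, by the root mean square difference of log2(CPM + 1) after each gene's mean within each kind of library was removed. Nearest to Fn1 were Fat1 (0.0684), a giant cadherin, Cd38 (0.084), an ectoenzyme, Epha2 (0.0954), an ephrin receptor, Lamc1 (0.115), a laminin gamma chain, and Steap3 (0.115), an iron reductase. Fat1 total RNA was 433 and 412 CPM in WT, against 1209 and 1118 CPM in KO, and Lamc1 total RNA was 688 and 615 CPM in WT, against 1660 and 1805 CPM in KO. Nearest to Vcan were Gpr126 (0.24), an adhesion receptor, Mfsd7c (0.258), Tmppe (0.259), Slc13a5 (0.265), a citrate transporter, and Gpc1 (0.279), the proteoglycan glypican. Nearest to Npnt were Cdh4 (0.374), a cadherin, Fst (0.384), the activin antagonist follistatin, Plxdc2 (0.413), Crim1 (0.519) and Wls (0.523), the carrier of Wnt proteins. A small distance says only that the values ran alike in these libraries.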

How the data were processed

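The deposited table holds CPM, as the authors computed them, with no other column. The submitters' processing notes name CASAVA 1.8.2, Bowtie2, RSEM and the build mm10, with no order of steps. Their settings and the use of strand are not given in those notes. In units of the smallest step, the share of values within 0.01 of a whole read was 89.2% to 90.5% in total RNA and 65.3% to 72.8% in footprints, so counts were not recovered and reads given for a gene are estimates.

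Values were taken to log2(CPM + 1), kept where the libraries of a fit averaged 1 CPM or more (in each kind for translational efficiency) and tested with limma-trend (limma 3.58.1, R 4.3.3) over all genes, with Benjamini-Hochberg adjustment. The smaller fits had 2 residual degrees of freedom and the fit of all 8 libraries had 4, and the p-values measure the spread between these libraries. Log2 differences are on the log2(CPM + 1) scale, which understates those of low genes, and folds are ratios of mean CPM. The test was tried on simulated data first. Library groups came from the titles.

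Members and lists were chosen with earlier results of these data known. The rule for list genes named up to 3 of the genes called higher and up to 3 called lower per list and comparison, by size among those averaging 5 CPM or more, or the 2 most abundant where none was called; others are named by their role or where a count is small. Coordinates and lengths came from GENCODE vM21 (GRCm38), and 22527 of 23818 symbols had a chromosome in RefSeq. Alternatives changed the filter, the pseudocount, the scaling, the block and the libraries used. Replicate numbers were not used to pair the libraries in the main fits.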

Additional observations from a re-analysis of the deposited data

Results flagged for a closer look

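The KO libraries of Itgb1 lay wholly below the WT ones in total RNA and wholly above them in footprints, and neither change was called. How many of all genes show this order was not counted, so nothing is read from it. Total RNA was 391 and 342 CPM in WT, against 278 and 296 CPM in KO, and footprints were 102 and 109 CPM in WT, against 116 and 139 CPM in KO. The difference between the footprint and total RNA changes was 0.61 on the log2 scale (SE 0.225), and limma-trend did not call it among 11364 genes. Itgb1 lies on chromosome 8, whose median log2 difference was −0.39 in both kinds of library, and less that median its values were 0.04 in total RNA and 0.66 in footprints.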

How the results depend on the processing

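The number of list genes called in total RNA (19 of 89) was 12 with no filter on low values and 15 to 22 under the other scalings, filters and fits (21 with the replicate block). In the fit of the 3 libraries left it was 11 without WT replicate 1, 4 without WT replicate 2 and 0 without either KO replicate, and in the fit of both kinds it was 12, 4, 16 and 12 in the same order. In footprints the number (24 of 84) was 22 to 26 otherwise (22 with the replicate block), 18 with any 1 library left out and, in the fit of both kinds, 14 and 15 without the WT replicates and 13 and 14 without the KO ones. The replicate block ended the footprint calls of Tln1 and Rap1a (limma-trend adjusted p = 0.096 and 0.0532). The total RNA fits of 3 libraries without a KO replicate called almost no gene of the whole table. For translational efficiency the number of list genes called was 0 throughout. Leaving out libraries within the fit of all 8 was chosen after seeing the data. The log2 differences between replicates 1 and 2 correlated across the genotypes at −0.02 in total RNA and −0.04 in footprints. Across the kinds of library they correlated at 0.08 in WT and 0.01 in KO. With 2 libraries per group these values cannot show whether libraries were paired. Of 423 alternative log2 differences of the 9 genes, 395 moved by less than the residual SD of the main fit, as moderated by limma. The other 28 moved by more, and 0 called ones changed sign. With all libraries in, the filters, the replicate block and the fit of all 8 libraries cannot change a log2 difference. The 2 kinds of fit with a library left out also give the same differences. The count of 395 is therefore no measure of stability. With mean transcript lengths the summed alpha subunits stood at 0.90 times Itgb1 in WT total RNA, against 1.17 with the longest transcript. Depth limits Npnt most, with 3 to 7 reads in WT total RNA.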
